A study of Mus musculus with 2 samples.

Results

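Txnip and Arrdc4 are the 2 genes of the alpha-arrestin family that are best known to respond to glucose, and they were followed here through the layers of the mouse corneal epithelium. They were taken by name from a count matrix of 17492 genes, and both were present. The study profiled single cells of the corneal epithelium from male C57BL/6J mice aged 20 weeks, in 1 control library and 1 diabetic library. Each library was a pool of 4 corneas from 2 mice. Diabetic mice had received 1 injection of streptozotocin, a toxin of pancreatic beta cells, at 160 mg/kg and had stayed above 250 mg/dL blood glucose through a study of 12 weeks, per the labels. Control mice had received citrate buffer. As a model, the diabetic group is limited to insulin loss from a toxin in males of 1 strain, and what else the toxin reaches was not measured.

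Cells take up glucose and trap it as glucose 6-phosphate, and the transcription factors MondoA (gene Mlxip) and ChREBP (gene Mlxipl), each paired with Mlx, bind DNA more strongly when sugar phosphates accumulate. Txnip is among their most responsive targets. Its protein binds thioredoxin, and it lowers glucose uptake by drawing the glucose transporter GLUT1 (gene Slc2a1) from the cell surface, so that it closes a feedback loop. Arrdc4, its close relative, likewise restrains glucose uptake and is induced through the same factors. Alpha-arrestins also recruit ubiquitin ligases of the NEDD4 family to membrane proteins.

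Txnip lies on chromosome 3 (96557957 to 96561883, plus strand, GRCm38) and has 8 exons in its longest annotated transcript, with a 3′ untranslated part of 1357 bases, which a 3′ assay reads. Arrdc4 lies on chromosome 7 (68736995 to 68749241, minus strand), also with 8 exons, and has a 3′ untranslated part of 2485 bases. The bases just upstream of both starts are shown because glucose reaches these genes through promoter elements. They are RefSeq promoters of build GRCm38.p6, at chr3:96557707-96557956 on the plus strand and chr7:68749242-68749488 on the minus strand. Capitals mark every match to a motif searched on both strands.
Txnip: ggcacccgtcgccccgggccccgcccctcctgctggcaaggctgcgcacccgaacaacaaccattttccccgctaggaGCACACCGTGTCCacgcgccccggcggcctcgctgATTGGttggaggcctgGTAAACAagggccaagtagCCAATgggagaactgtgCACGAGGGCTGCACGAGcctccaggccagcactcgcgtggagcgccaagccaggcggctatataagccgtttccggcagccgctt
Arrdc4: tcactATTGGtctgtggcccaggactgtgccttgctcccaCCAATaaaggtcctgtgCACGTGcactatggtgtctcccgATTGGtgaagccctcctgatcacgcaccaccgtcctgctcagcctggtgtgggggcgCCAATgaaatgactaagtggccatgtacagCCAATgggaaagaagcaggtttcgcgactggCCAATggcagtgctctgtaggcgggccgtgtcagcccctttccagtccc

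The longest capital run in the Txnip promoter, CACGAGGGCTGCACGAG, spans positions -85 to -69 from the start. It matches CACGNG followed after 5 bases by CACGNG, a direct pair of E-box-like elements with the spacing of a carbohydrate response element, which 0.0457% of 32851 RefSeq promoters hold in the same 250 bases (15 promoters). The inverted pair, CACGNG followed after 5 bases by CNCGTG, is held by 0.0396% of promoters and by neither gene. The Arrdc4 window has a single E-box, CACGTG, from -193 to -188 (6.02% of promoters have at least 1), and no pair. CCAAT occurs 2 times in the Txnip and 6 times in the Arrdc4 window, and in 33.8% of promoters. Txnip also has TGTTTAC, the core of a FOXO site, on the minus strand (3.17% of promoters), and GNACA followed after 3 bases by TGTNC, the outline of a glucocorticoid receptor element (0.387%). No 2 of these matches overlap. Of the other alpha-arrestin genes in the promoter table, Arrdc1, Arrdc2, Arrdc3 and Arrdc5 had neither pair nor an E-box in their windows. A match is a description of letters, and binding was not measured.

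The control library held 9605 cells and the diabetic library 8203, with medians of 16487 and 17677 unique molecular identifiers (UMIs, 1 per captured molecule) per cell. There were 18 cell barcodes found in both libraries. Cell types are the authors' labels: LSC, Basal, TAC1, TAC2, Wing, Squam and Conj for the epithelium, and 36 cells called Immune. Their meaning is not spelled out in the sources used here. All 4 fixed markers were highest under their own label for TAC2, Squam, Conj and Immune, 3 of 4 for LSC and Wing and 2 of 4 for TAC1. For Basal it was 0 of 4, since Krt14, Itgb4, Col17a1 and Wnt10a were highest in LSC or TAC1 cells. Each group is a single library, so nothing here has a replicate check and no test between groups was possible. Levels are counts per 1000000 summed UMIs (CPM), and every interval is an exact 95% interval that covers counting error only. Differences between the animals and between the preparations cannot be told apart from those between the conditions.

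In the control library Txnip was highest in the LSC-labelled cells and lowest in Wing cells. LSC cells were at 657 CPM (95% interval 623 to 692), followed by Conj at 304 CPM (294 to 315), Basal at 239 CPM (234 to 244) and TAC2 at 226 CPM (218 to 234). TAC1 cells were at 206 CPM (199.7 to 212), Squam at 148 CPM (144 to 152) and Wing at 117 CPM (114 to 119). Only Basal and TAC2 were neighbours with overlapping intervals. The highest level was 5.62 times the lowest.

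In the diabetic library LSC and Wing cells again held the highest and the lowest level, but the labels lay closer together. LSC cells were at 712 CPM (687 to 736) and Basal cells at 500.1 CPM (493 to 508). TAC2 (367 CPM), Conj (363 CPM) and TAC1 (361 CPM) followed with overlapping intervals, then Squam at 319 CPM (313 to 325) and Wing at 261 CPM (257 to 265). The highest level was 2.73 times the lowest. Set against Basal cells of the same library, LSC cells held 2.75-fold the Txnip level in control (2.60 to 2.91) and 1.42-fold in diabetic cells (1.37 to 1.48).

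**Figure D1:**
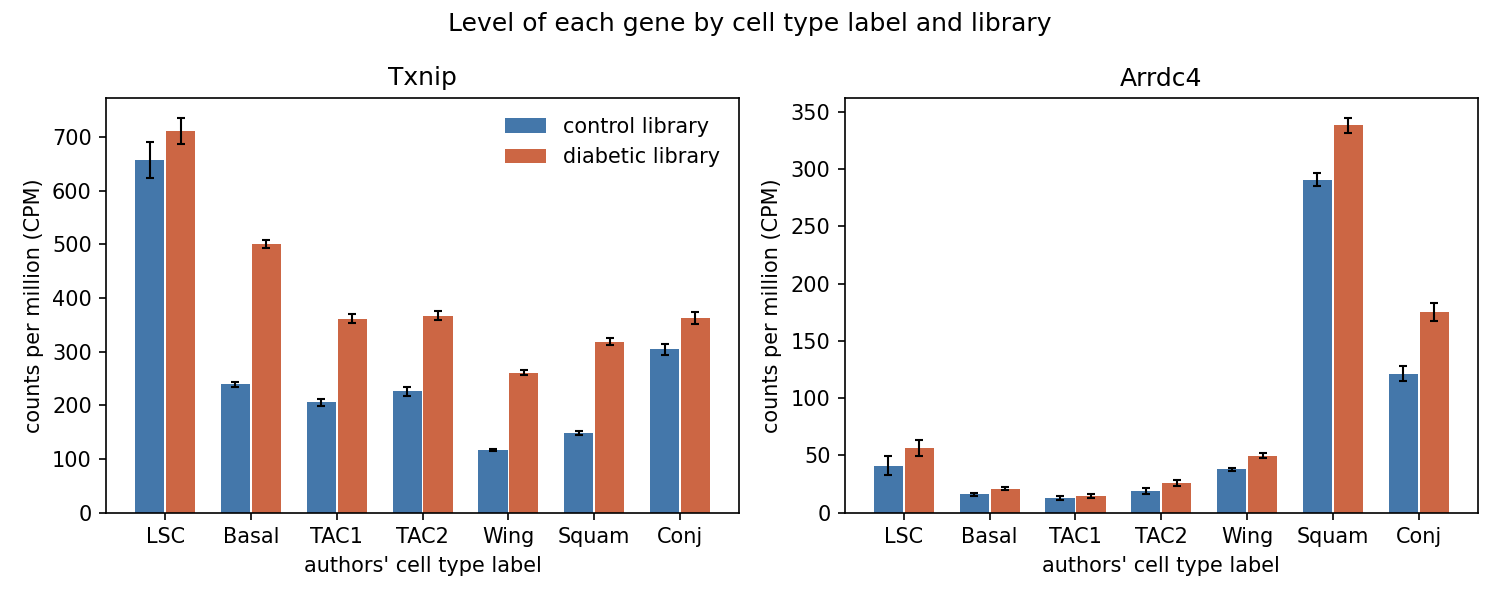
Level of Txnip (left) and Arrdc4 (right) in CPM for each epithelial label, with 1 bar per library and exact 95% Poisson intervals as error bars. Txnip is highest in LSC cells of both libraries (657 and 712 CPM), while Arrdc4 is highest in Squam cells (291 and 338 CPM).

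Arrdc4 had a different pattern across the labels, with its highest level in Squam cells. Control Squam cells were at 291 CPM (285 to 296), Conj at 121 CPM (115 to 128), LSC at 40.4 CPM (32.4 to 49.8) and Wing at 37.7 CPM (36.3 to 39.0). TAC2 (18.6 CPM), Basal (16.04 CPM) and TAC1 cells (12.8 CPM) were lowest. Intervals overlapped between LSC and Wing and between TAC2 and Basal. The Squam level was 18.1 times the Basal level (16.6 to 19.8), whereas for Txnip the Squam level was 0.618 of the Basal level.

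The order of the labels for Arrdc4 was the same in the diabetic library, from Squam at 338 CPM (332 to 345) and Conj at 175 CPM (167 to 183) through LSC at 56.3 CPM, Wing at 49.7 CPM, TAC2 at 25.7 CPM and Basal at 21.0 CPM to TAC1 at 14.7 CPM. Only LSC and Wing had overlapping intervals there. The highest level was 22.7 times the lowest in control and 23.0 times in diabetic cells. Squam cells supplied 67.7% of the Arrdc4 counts of the control library and 62.1% of those of the diabetic one, from 19.9% and 17.9% of all UMIs.

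Between the libraries, Txnip was higher in diabetic cells of every epithelial label, but not by the same amount. Over all cells it stood at 176 CPM (174 to 178) in the control library against 360.2 CPM (357 to 363) in the diabetic one, a ratio of 2.05 (2.02 to 2.08), and 273 of 13846 genes had a higher ratio. A gene was called higher when its ratio was 1.5 or more with at least 50 counts and level intervals that do not overlap. Over all cells 1 of the 2 arrestin genes, Txnip, was called, against 5.98% of all genes. By label Txnip was called in 5 of 7, at 2.23-fold (2.17 to 2.29) in Wing, 2.16-fold (2.09 to 2.23) in Squam, 2.09-fold (2.04 to 2.15) in Basal, 1.75-fold (1.69 to 1.82) in TAC1 and 1.63-fold (1.56 to 1.70) in TAC2 cells. The shares of genes called higher were 3.93% in Wing, 1.79% in Squam, 2.63% in Basal, 1.7% in TAC1 and 2.21% in TAC2 cells. Only 54 of 10313 genes in Squam cells and 99 of 12080 in Wing cells had a higher ratio than Txnip.

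The 2 labels outside the call were those with the highest control levels of Txnip. In LSC cells the ratio was 1.08 (1.02 to 1.15) with overlapping level intervals, where 2.63% of genes were called higher. In Conj cells it was 1.19 (1.14 to 1.25), where 2.52% were called. In LSC cells 3132 of 8567 genes had a higher ratio than Txnip. The LSC groups were unlike in size and depth, with 202 control cells at a median of 9259.5 UMIs and 331 diabetic cells at 12284 UMIs. Their summed LSC markers were at 17308 and 13827 CPM. By depth, the LSC ratio of Txnip was 1.29 (1.15 to 1.45) under 10000 UMIs and 1.07 (0.978 to 1.18) from 10000 to 20000 UMIs. The part of depth and makeup in the LSC ratio was not tested. Whether labels differ in their response beyond animal-to-animal spread could not be tested with 1 pool per group.

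Arrdc4 was also higher in diabetic cells of all 7 epithelial labels, by less than the size asked of a call in the counts as deposited. After each cell was thinned to equal depth, the log2 ratio was 0.59 in TAC1 and 0.65 in TAC2 cells, past that size. Over all cells its level was 85.3 CPM (84.0 to 86.6) against 97.3 CPM (95.9 to 98.8), a ratio of 1.14 (1.12 to 1.17). The ratio was 1.45 (1.35 to 1.55) in Conj, 1.39 (1.09 to 1.79) in LSC, 1.38 (1.18 to 1.62) in TAC2, 1.32 (1.25 to 1.39) in Wing and 1.31 (1.17 to 1.47) in Basal cells. It was 1.16 (1.13 to 1.19) in Squam cells and 1.15 (0.971 to 1.36) in TAC1 cells, where the interval includes equality. Level intervals were apart in 5 of 7 labels, against a share of all genes higher by any size with intervals apart of 5.31% in LSC, 13.3% in Basal, 8.95% in TAC1, 10.8% in TAC2, 23.4% in Wing, 12% in Squam and 10.9% in Conj cells, and of 34.1% over all cells. Neither gene was called lower anywhere. The shares of genes called lower were 2.8% over all cells, 2.61% in LSC, 2.38% in Basal, 1.52% in TAC1, 1.35% in TAC2, 2.59% in Wing, 7.75% in Squam and 1.95% in Conj cells.

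**Figure D2:**
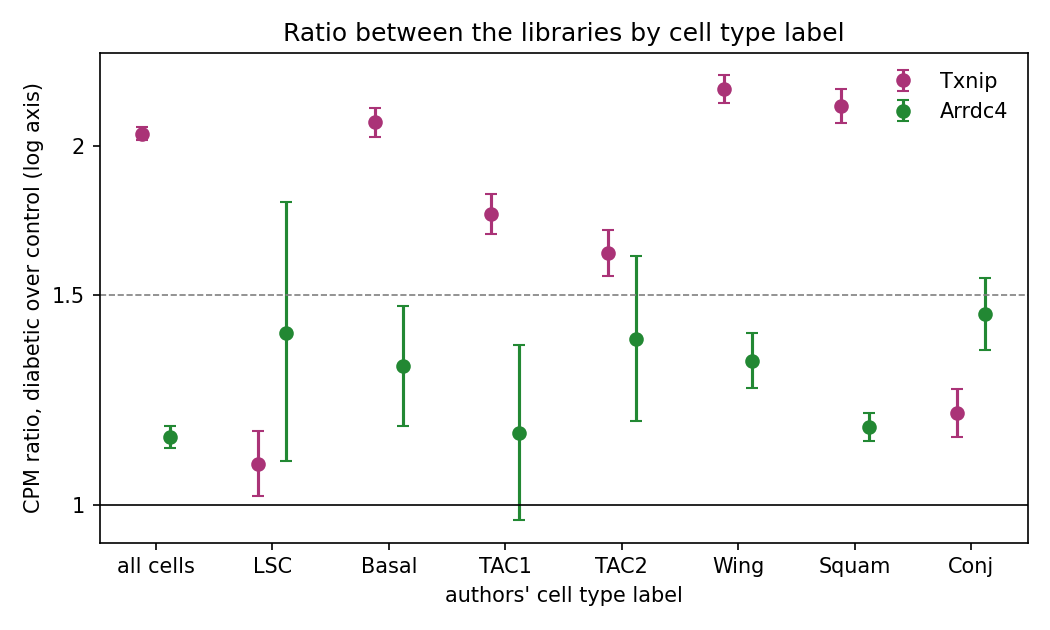
CPM ratio of the diabetic over the control library on a log axis, for all cells and each epithelial label, with exact 95% intervals for counting error. The dashed line is the 1.5-fold size of a call. Txnip lies above it in Basal, TAC1, TAC2, Wing and Squam cells and below it in LSC and Conj cells, and Arrdc4 lies between 1.15 and 1.45 in every label.

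The ratio of Arrdc4 over all cells was lower than in each of the 7 labels taken alone. The makeup of the libraries also differed: the share of Wing cells was 30.2% in the control library against 24.1% in the diabetic one, and Squam cells held a smaller part of all UMIs in the diabetic library. The part of makeup in the ratio was not tested, and the next values only set the label weights equal. With the same weight for each label in both libraries, Arrdc4 was at 73.1 and 89.5 CPM, a ratio of 1.23. Txnip was then at 201 and 377 CPM, a ratio of 1.87.

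Counts of Arrdc4 per 100 counts of Txnip in the same cells do not depend on how the libraries are scaled, and are used here to compare libraries and not as relative abundance. In Squam cells there were 197 in control and 106 in diabetic cells, an odds ratio of 0.539 (0.516 to 0.562). Ratios below 1 with intervals excluding 1 were also found in Wing (32.2 and 19.1, odds ratio 0.592), Basal (6.71 and 4.197, 0.625) and TAC1 cells (6.21 and 4.07, 0.656). In TAC2 cells the counts were 8.25 and 6.99, and the interval of the odds ratio, 0.719 to 1.001, reached 1. Conj cells went the other way, with 39.8 and 48.1 and an odds ratio of 1.21 (1.11 to 1.32), as did LSC cells by value (6.15 and 7.91, odds ratio 1.29, 0.997 to 1.67). By interval, 4 labels had an odds ratio below 1 and 1 label had one above 1. After thinning to 5000 UMIs the log2 odds ratio of TAC1 cells was -0.20, in place of -0.61. The thinned value rests on few Arrdc4 UMIs, with 64 control and 77 diabetic TAC1 cells holding any.

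**Figure D3:**
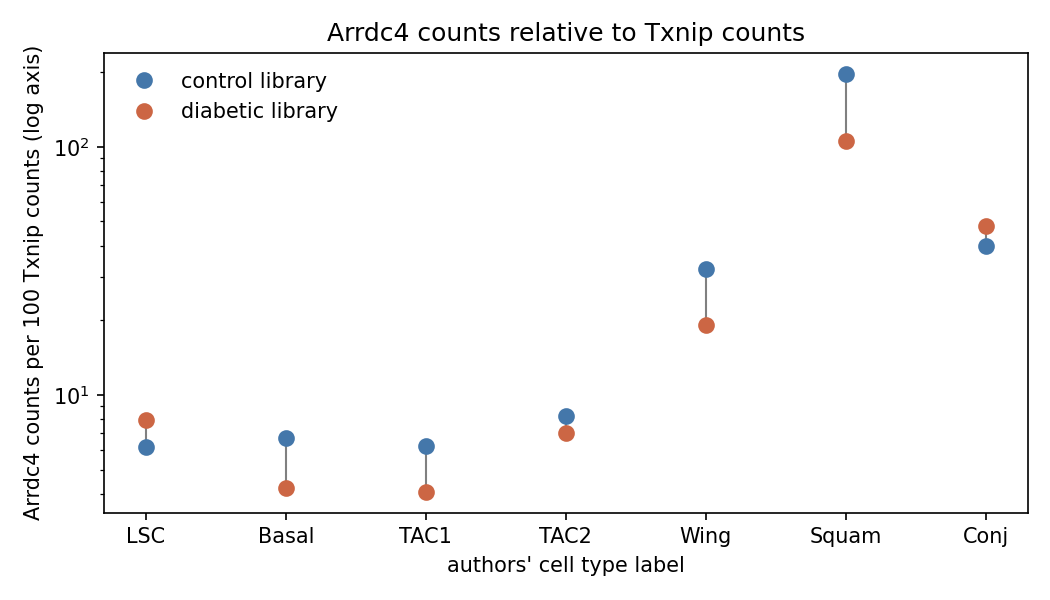
Arrdc4 counts per 100 Txnip counts for each label and library, on a log axis, with a grey line joining the libraries. The diabetic point is lower in Basal, TAC1, TAC2, Wing and Squam cells (197 and 106 in Squam) and higher in LSC and Conj cells (39.8 and 48.1 in Conj).

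Values per cell were compared after thinning each cell to 5000 UMIs, which left out 486 control and 264 diabetic cells. Among Basal cells, those with at least 1 Txnip UMI were 65.96% (64.0 to 67.9) in the control library against 85.3% (83.8 to 86.7) in the diabetic one, and 87.0% and 97.2% unthinned. Cells with 5 or more Txnip UMIs were 44 of 2365 control and 407 of 2318 diabetic Basal cells, shares of 1.86% (1.35 to 2.49) and 17.6% (16.03 to 19.2). The upper tail was thus longer as well as the median higher: the variance over the mean was 1.28 in control and 2.45 in diabetic Basal cells, and the highest cell held 8 and 31 UMIs. In Squam cells the share with a Txnip UMI was 42.4% (39.9 to 44.9) and 68.0% (65.4 to 70.6), and in Wing cells 44.1% and 67.5%.

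LSC cells differed from Basal cells in this view too. A Txnip UMI was found in 94.7% (90.1 to 97.5) of control and 93.6% (90.1 to 96.1) of diabetic LSC cells, and the median was 3 UMIs in both. Cells with 10 or more Txnip UMIs were 1 of 169 control and 17 of 295 diabetic LSC cells, shares of 0.592% (0.0150 to 3.25) and 5.76% (3.39 to 9.07). In Conj cells the share with a Txnip UMI was 73.7% and 81.6%, with overlapping intervals.

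For Arrdc4 most cells outside the Squam label had no UMI at this depth, apart from diabetic Conj cells. The share with at least 1 was 63.1% (60.7 to 65.5) of control and 71.0% (68.5 to 73.5) of diabetic Squam cells, and 38.3% (33.8 to 42.9) and 52.3% (47.5 to 57.1) of Conj cells. It was 15.04% and 20.9% in Wing and 8.46% and 10.2% in Basal cells, with overlapping intervals in Basal. Cells with 5 or more Arrdc4 UMIs were 7.72% and 7.95% of Squam cells, so that the Squam tail was about as long in both libraries. Unthinned shares of Arrdc4 were 92.4% and 93.8% in Squam cells, at median depths of 22382 and 21047 UMIs.

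**Figure D4:**
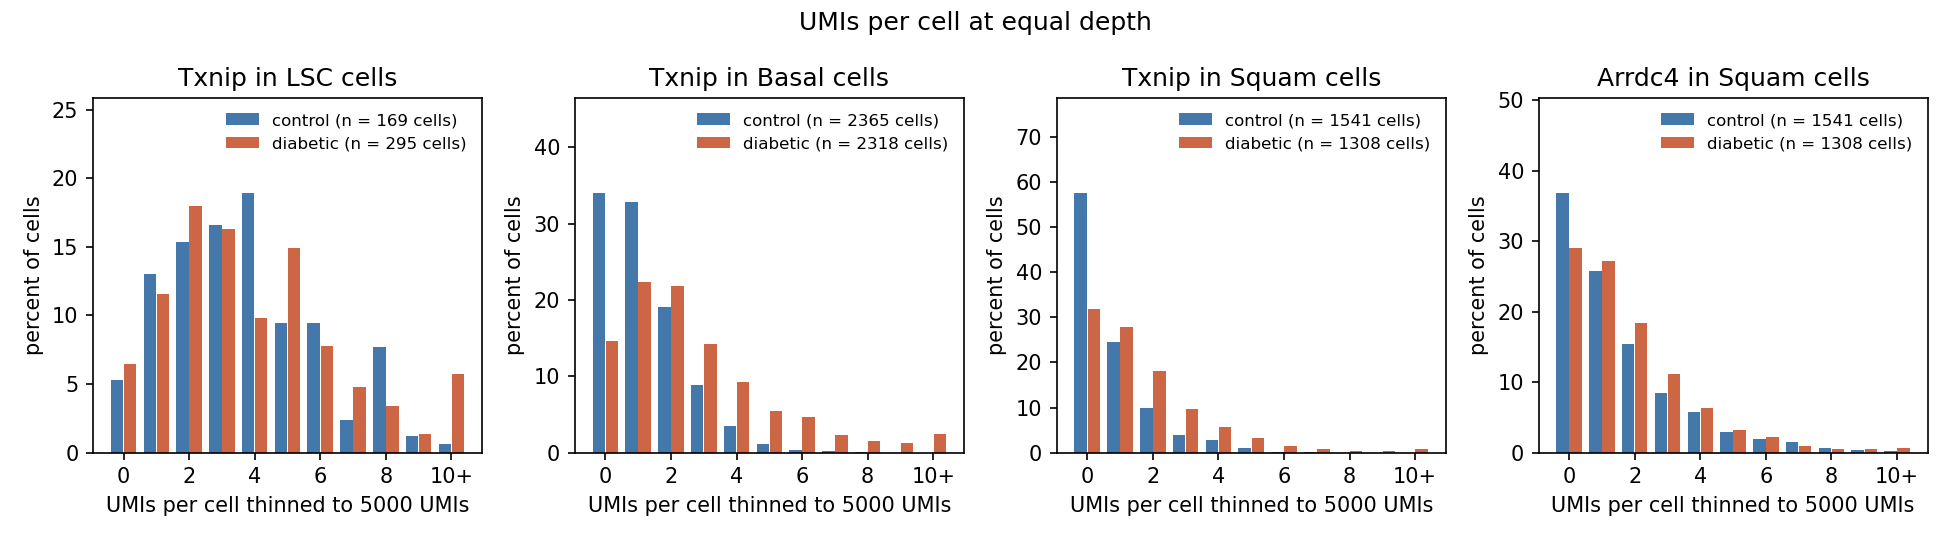
Percent of cells holding each number of UMIs after thinning to 5000 UMIs per cell, for Txnip in LSC, Basal and Squam cells and Arrdc4 in Squam cells, with the last bar for 10 or more. Diabetic Basal cells hold 5 or more Txnip UMIs in 17.6% of cells against 1.86% in control, while the Arrdc4 bars of Squam cells at 5 or more nearly coincide (7.72% and 7.95%).

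Within a label the UMIs of both genes had low correlations from cell to cell at this depth. Over the 14 groups of cells (7 labels in 2 libraries) the Spearman correlation of their thinned UMIs lay between -0.13 and 0.09. The lowest value was that of control Squam cells, of which 63.1% held an Arrdc4 UMI, and diabetic Squam cells were at 0.05. Arrdc4 was sparser under the other labels, so low values there do not settle whether the genes are related.

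The Txnip level moved with depth. In every epithelial label but Squam, cells under 10000 UMIs had more Txnip per UMI than those from 10000 to 20000 UMIs, in both libraries. Control Squam cells were at 151 CPM under 10000, 133 CPM from 10000 to 20000 and 151 CPM over 20000 UMIs. Diabetic Squam cells were at 360, 365 and 303 CPM in the same bands. Diabetic Basal cells of that depth were at 779 CPM and control ones at 258 CPM, against 464 and 239 CPM from 10000 to 20000 UMIs, so the Basal ratio was 3.02 in the first band and 1.94 in the second. In Squam cells the Txnip ratio was 2.38, 2.74 and 2.01 in cells under 10000, from 10000 to 20000 and over 20000 UMIs. In LSC cells under 10000 UMIs the Txnip ratio was 1.29 (1.15 to 1.45), and from 10000 to 20000 UMIs it was 1.07 (0.978 to 1.18). Over all cells the Txnip ratio was 2.44, 1.98 and 2.06 in cells under 10000, from 10000 to 20000 and over 20000 UMIs. For Arrdc4 in Squam cells the ratios in those bands were 1.10 (0.911 to 1.33), 1.03 (0.981 to 1.09) and 1.17 (1.14 to 1.21), so only the deepest band had an interval above 1. In Conj cells the Arrdc4 ratio was 1.46, 1.49 and 1.41.

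Psca, a marker of Squam cells, served as a gauge of free RNA under the other labels. Its level in Basal cells was 1.17% of that over all cells in control and 0.460% in diabetic cells. The same percentages of the all-cell levels would be 2.05 and 1.66 CPM for Txnip, against 239 and 500.1 CPM measured in Basal cells. For Arrdc4 they would be 0.995 and 0.448 CPM, against 16.04 and 20.99 CPM. In TAC2 cells Psca was at 5.34% and 3.43% of its all-cell level, and the same percentages would be 4.56 and 3.34 CPM of Arrdc4, against 18.6 and 25.7 CPM measured. The part of free RNA in the TAC2 ratio of Arrdc4 was not tested. The summed level of the 4 Squam markers in Conj cells was 2515 CPM in the control library against 4036 CPM in the diabetic one, beside the higher Arrdc4 there, and 29736 and 41383 CPM in Squam cells. Their part in the Arrdc4 ratio was not tested.

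Txnip shares its locus with Gm15441, an antisense RNA (chromosome 3, 96555765 to 96566801, minus strand) that spans the whole gene. It had 227 control and 274 diabetic counts, at 1.16 and 1.60 CPM, a ratio of 1.39 (1.16 to 1.66), far below the 34529 and 61610 counts of Txnip. How strand was used in counting is not given in the sources used here.

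Few genes of the surrounding pathway were called over all cells. Of 61 listed genes in 7 groups, 47 had enough counts over all cells, and 2 were called higher and 0 lower, 4.26% of them against 5.98% of all genes. In all, 25 of the 47 had a ratio above 1, where 61.4% of all genes did. Of the sensors themselves, Mlxip (MondoA) was at 10.2 and 10.9 CPM, a ratio of 1.07 (1.001 to 1.14), and its partner Mlx at 24.2 and 21.6 CPM, a ratio of 0.893 (0.855 to 0.933). Mlxipl (ChREBP) had 19 and 22 counts, under the minimum.

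Among other known targets of the Mondo factors, 1 of 8 was called. It was Klf10, a zinc finger repressor induced by TGF-beta, with 6.49 CPM in the control library against 13.997 CPM in the diabetic one, a ratio of 2.16 (2.01 to 2.31). It was called higher in 7 of 7 labels, from 1.64-fold (1.44 to 1.87) in Basal to 2.95-fold (2.46 to 3.54) in Squam cells. In LSC cells, where the Txnip ratio was 1.08, that of Klf10 was 2.54 (1.64 to 4.11), and in Conj cells 1.96 (1.297 to 3.02). The other 7 measured targets had ratios from 0.742 for the fatty acid elongase Elovl6 (90.3 and 67.0 CPM) to 1.29 for the fructose-phosphorylating enzyme Khk (14.3 and 18.4 CPM), and 0 of them were called over all cells. By label Elovl6 was called lower in LSC (106 and 70.4 CPM) and Squam cells (41.1 and 23.1 CPM), the glycolytic regulator gene Pfkfb3 lower in Squam cells (ratio 0.649) and the hexokinase gene Hk2 higher in Conj cells (4.41 and 7.98 CPM, ratio 1.81). Over all cells the median log2 ratio of the 8 was -0.14, against 0.07 for all genes. By label the median was 0.50 in Conj cells, with 5 of 7 above 1, against 53.5% of all genes. In LSC cells it was 0.16, with 7 of 8 above 1, against 51.3% of all genes. Under every other label it was below 0, from -0.28 in Squam to -0.035 in TAC1 cells.

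The other arrestins had ratios on both sides of 1. Of 7 measured members, 0 were called over all cells, with ratios from 0.778 for Arrdc2 to 1.45 for the beta-arrestin Arrb2, and the median log2 ratio was -0.0040. Arrdc3, which also acts on receptor trafficking, was at 58.4 and 62.0 CPM, a ratio of 1.06 (1.03 to 1.09). Arrdc1, known for its part in budding of vesicles, was at 37.0 and 36.3 CPM, and the retromer subunits Vps26a and Vps26b, which share the arrestin fold, had ratios of 0.997 and 1.05. Across labels Arrdc3 was at 104 and 134 CPM in Squam cells, at 112 and 126 CPM in Conj cells and at 23.6 and 22.7 CPM in Basal cells. In LSC cells it was called lower, at 116 and 72.5 CPM (ratio 0.625, 0.529 to 0.738), where 2.61% of genes were. Arrb2 was called higher in TAC2 cells (ratio 2.23).

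Partners and clients of Txnip had ratios within the 1.5-fold size over all cells. Txn1, the cytosolic thioredoxin that Txnip binds, was at 1239 and 1385 CPM, a ratio of 1.12 (1.11 to 1.12). Its ratio was 0.966 in LSC, 1.01 in Basal, 1.02 in TAC1 and 1.04 in TAC2 cells. The part of library makeup in the all-cell ratio was not tested. In Squam cells Txn1 was called lower, at 251 and 155 CPM (ratio 0.617, 0.595 to 0.638). Calls lower were most common under that label, at 7.75% of all genes, and 38.9% of genes there had a ratio above 1. Over all cells thioredoxin reductases Txnrd1 (0.813) and Txnrd3 (0.855) and mitochondrial Txn2 (0.988) were below 1. Ddit4, whose protein pairs with Txnip in restraint of mTORC1, was called higher in TAC1 (1.66-fold) and Wing cells (1.86-fold). Txnrd2, the mitochondrial reductase, was called lower in Squam (ratio 0.653) and Conj cells (0.489), and Txnrd3 in Squam cells (0.4002). Slc2a1, the transporter that Txnip removes from the membrane, was at 13.6 and 13.9 CPM, a ratio of 1.02 (0.966 to 1.08). The sodium-coupled glucose transporter Slc5a1 was at 76.0 and 55.5 CPM (ratio 0.730) and was called lower in Basal and Wing cells (21.4 and 10.9 CPM in Wing). The hexokinases Hk1 and Hk2 had ratios of 0.818 and 1.02, and Hk1 was called lower in Squam cells (ratio 0.518). Of the ubiquitin ligases, Nedd4 (173 and 210.1 CPM, 1.21-fold), Itch (1.05-fold) and Wwp1 (32.8 and 47.2 CPM, 1.44-fold) were above 1 and Wwp2 (0.898) below. The 7 measured had a median log2 ratio of 0.20, against 0.07 for all genes. Nedd4l was called higher in Basal cells (ratio 1.56).

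FOXO factors are held out of the nucleus by insulin signalling, and Txnip is one of their known targets. Of 10 measured genes of that group 8 had a ratio above 1 over all cells, where 61.4% of all genes did. Their median log2 ratio was 0.20, against 0.07 for all genes, and 1 was called, where 5.98% of all genes were. It was Bcl6, a transcriptional repressor, at 10.6 and 19.3 CPM, a ratio of 1.81 (1.72 to 1.92). Bcl6 was called in Basal, TAC1, TAC2 and Wing cells, all labels where Txnip was called as well, and had ratios of 1.38 in LSC, 1.09 in Squam and 1.07 in Conj cells. In Basal cells 4 of the 10 were called higher, where 2.63% of all genes were. Beside Bcl6 they were the insulin receptor gene Insr (9.37 and 15.4 CPM, ratio 1.65), the cyclin gene Ccng2 (6.45 and 10.9 CPM, 1.69) and the ubiquitin ligase gene Fbxo32 (12.6 and 18.9 CPM, 1.505). The count called higher was 3 of 10 in TAC2 and in Wing cells and 1 in TAC1 cells, where 2.21%, 3.93% and 1.7% of all genes were. It was 0 in LSC cells, where 4 of 10 had a ratio above 1 (median log2 -0.09), against 51.3% of all genes (median log2 0.01). It was also 0 in Conj and in Squam cells. The shares of all genes called higher were 2.63% in LSC, 2.52% in Conj and 1.79% in Squam cells. At such shares a count of 0 among 10 genes does not set these labels apart. In Squam cells Txnip was called and the sestrin gene Sesn3 was called lower (ratio 0.661), as were 7.75% of all genes there.

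**Figure D5:**
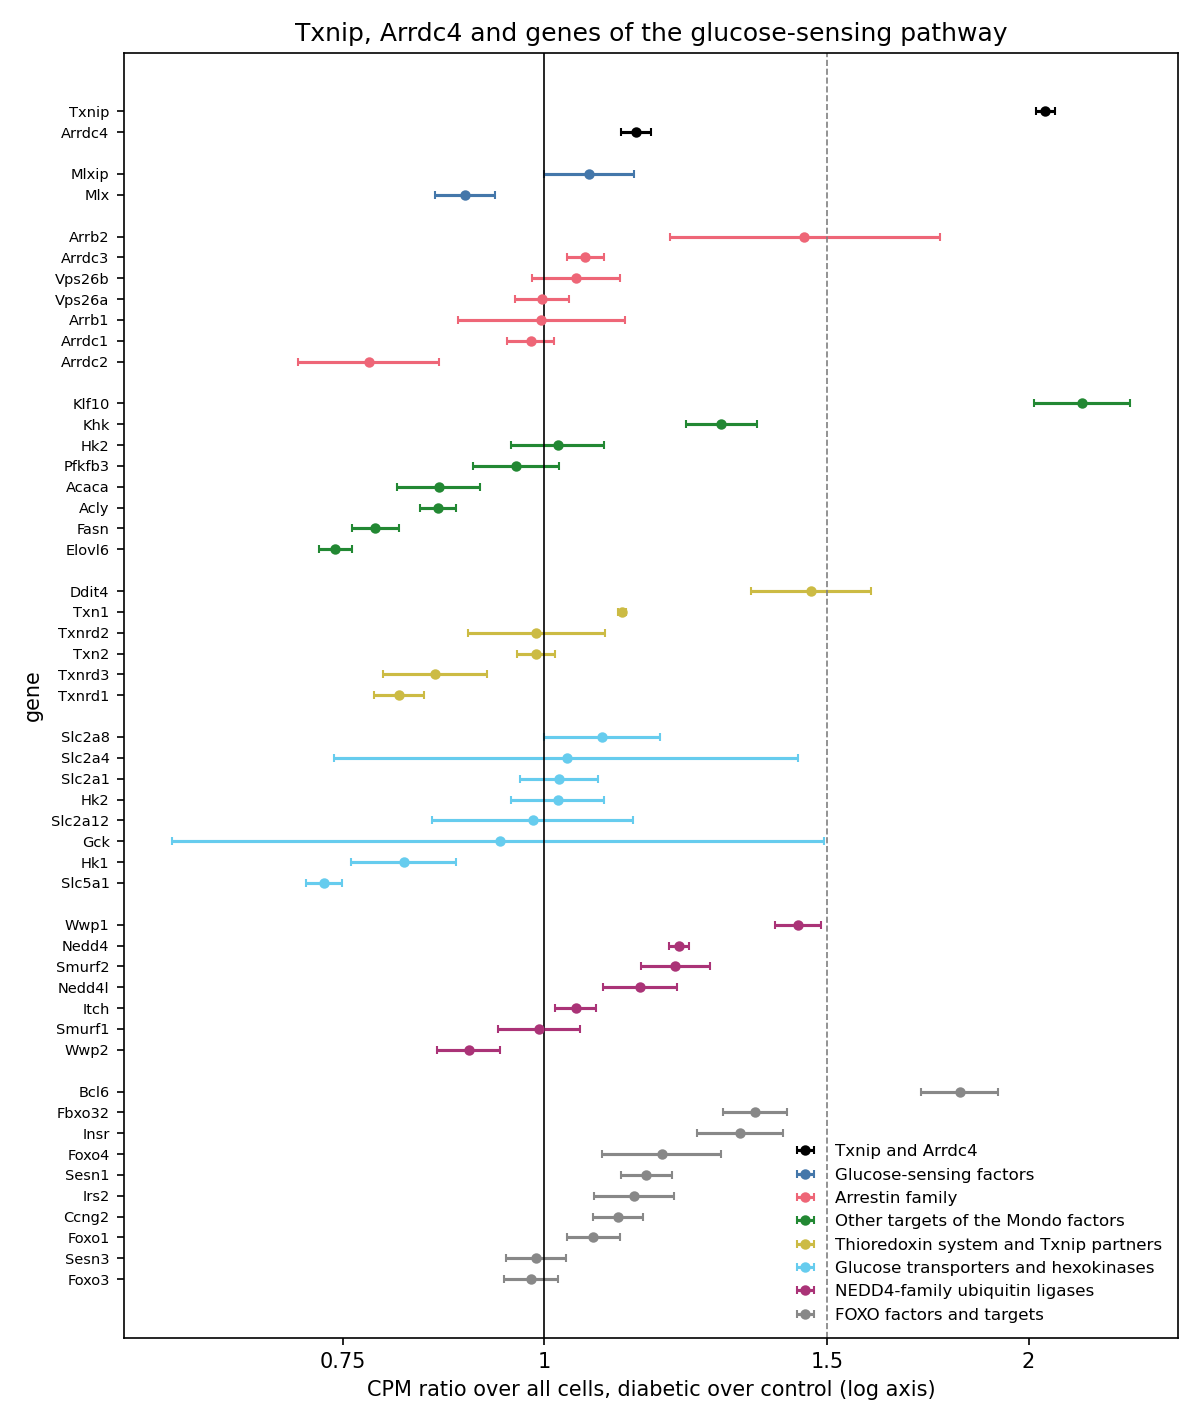
CPM ratio over all cells (log axis) of Txnip, Arrdc4 and each pathway gene with 50 or more counts, coloured by group, with exact 95% intervals for counting error. Beyond the dashed line at 1.5 lie Txnip (2.05), Klf10 (2.16) and Bcl6 (1.81), while the other listed genes lie between 0.730 and 1.47.

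Genes with a pattern like each arrestin were ranked by Pearson's r of log2(CPM + 1) over 14 sums (7 labels in 2 libraries) among 9031 genes. The points share libraries and cells, so r is a description. The first 5 for Txnip were Spaca6, a sperm membrane protein gene (r = 0.90), Gpha2, a glycoprotein hormone subunit that marks limbal cells (0.89), Mplkip (0.88), the gene model Gm42418 (0.88) and the cell surface receptor gene Boc (0.87). Spaca6, at 1.71 to 10.4 CPM, was called higher in the same 5 labels as Txnip, at ratios from 1.61 in Squam to 2.28 in Wing cells. It was at 1.11 in LSC and 1.02 in Conj cells. Since Spaca6 was picked for its likeness over these same sums, the shared labels are no separate finding. Gpha2 differed in LSC cells, with 2875 CPM in the control library against 2049.7 CPM in the diabetic one, and it was also called higher in Conj cells. For Arrdc4 the first 5 were the endocytic adaptor gene Fcho2 (0.99), Usp6nl, a GTPase-activating protein of Rab5 (0.99), the sphingomyelin synthase gene Sgms2 (0.99), Jmjd1c (0.99) and the lipid-binding protein gene Osbpl3 (0.99). These were highest in Squam cells, and their ratios over all cells lay between 0.901 and 1.05. Txnip and Arrdc4 themselves correlated at r = -0.06.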

How the data were processed

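Single-cell libraries were made with the Chromium Next GEM 3′ assay, per the labels' protocols. The authors deposited UMI counts as whole numbers for every gene in every cell, without normalization. A deposited cell table gives the group and the authors' cell type label of each of 17808 cells. The submitters' processing notes list Cell Ranger 5.0.0, Seurat 4 and the build mm10. No source used here states how cells were filtered. Deposited cells had at least 520 UMIs and at most 29.3% mitochondrial counts.

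Counts were summed per label and library and divided by the total of the same sum (CPM). Intervals are Poisson for levels, conditional binomial for ratios, conditional exact for odds ratios and Clopper-Pearson for shares. Since each group is 1 library, groups were compared by size only, without p-values. The call of size needs a ratio of 1.5 either way, 50 counts over both libraries and level intervals apart. Doublets were scored with Scrublet, whose automatic threshold marked 0 cells and so did not work here. The alternative left out the top 8% of scores instead (791 control and 683 diabetic cells). Gene positions are from GENCODE M21 on GRCm38, which mm10 names, and promoters from RefSeq on GRCm38.p6.

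The members and gene lists were chosen with earlier results of these data known. Of each pathway list the text names every member called over all cells, otherwise up to 4 with the most counts, and the first 5 genes of a like pattern. Elovl6, Khk, Arrdc2 and every listed gene named for a call by label, apart from Klf10 and Bcl6, were singled out after they were seen. Protein sequences were not used here. Scrublet was run through scanpy 1.11.5. Intervals came from scipy 1.17.1, with pandas 2.3.3 and numpy 2.4.6 under Python 3.11.15, and plots from matplotlib 3.10.9.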

Additional observations from a re-analysis of the deposited data

Results flagged for a closer look

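The balance of Arrdc4 and Txnip counts went in opposite directions under different labels. Its odds ratio between the libraries was 1.29 (0.997 to 1.67) in LSC and 1.21 (1.11 to 1.32) in Conj cells, and between 0.539 and 0.656 in Squam, Wing, Basal and TAC1 cells. The LSC interval holds 1. After thinning to 5000 UMIs the log2 odds ratio of LSC cells was 0.097, in place of 0.36, and that of Conj cells 0.26, in place of 0.28. Thinned to 10000 UMIs, LSC cells held 43.4 and 58.2 CPM of Arrdc4 beside 628 and 715 CPM of Txnip. Thinned to 2000 UMIs, they held 43.1 and 47.5 CPM of Arrdc4 beside 635 and 787 CPM of Txnip. Arrdc4 had the higher ratio at the first depth and Txnip at the second, so the LSC direction turned with depth. The difference between labels was not tested, since each group is 1 library.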

How the results depend on the processing

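Over all cells both genes stayed above 0 on the log2 scale under every alternative run. For Txnip (log2 ratio 1.03) the value was 0.96 with median-of-ratios scaling and 0.90 with the same label weights in both libraries. Leaving out the cells of 1 label, an alternative chosen after seeing the data, gave 0.99 without Basal, 1.06 without TAC1, 1.06 without TAC2, 0.91 without Wing, 1.01 without Squam and 1.10 without Conj. For Arrdc4 (0.19) the value was 0.12 with median-of-ratios scaling, 0.27 with equal weight for every cell, 0.26 after thinning and 0.29 with the same label weights. It was 0.24 without Basal, 0.23 without TAC2, 0.017 without Wing, 0.38 without Squam and 0.14 without Conj cells. The all-cell ratio of Arrdc4 thus moved with the labels that were included. The log2 odds ratio of Arrdc4 over Txnip (-0.84) was -0.80 without likely doublets and -0.76 after thinning. Within labels 98 of 98 alternative log2 ratios were above 0, and 86 lay within the interval of the value reported. For Arrdc4 some passed the size of a 1.5-fold ratio. After thinning to 5000 UMIs the value was 0.59 in TAC1 (0.20 reported) and 0.65 in TAC2 cells (0.46 reported). It was 0.69 in TAC2 cells with equal weight for every cell. Thinned to 10000 UMIs, both labels were short of that size. In LSC cells the log2 ratio of Arrdc4 was 0.22 after thinning to 5000 UMIs (0.48 reported). The log2 odds ratio after thinning was -0.20 in TAC1 cells (-0.61 reported) and -0.0061 in TAC2 cells (-0.24 reported). Over all genes 828 were called higher and 387 lower, against 632 and 497 with median-of-ratios scaling, which shifts the log2 ratio of all genes by -0.07, and 292 and 126 at a fold of 2. Txnip was called in each of these settings and Arrdc4 in 0. Of the pathway genes 1 was called higher, in place of 2, at a fold of 2. With Spearman's correlation 1 of the first 5 genes was shared for Txnip and 1 for Arrdc4, so those names rest on the measure. Shares of cells with a UMI moved with the thinning depth in 83 of 84 cases. Leaving out barcodes found in both libraries, added after seeing the data, gave 1.03 for Txnip and 0.19 for Arrdc4. No paired analysis was possible because each group holds a single pooled library. Arrdc4 in LSC cells rests on 88 and 259 counts.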

Other observations

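The 36 cells labelled Immune count among all cells but were left out of the comparisons by label. In them Txnip had 34 control counts (354 CPM, 245 to 495) and 24 diabetic counts (764 CPM, 489.7 to 1137), from 26 and 10 cells. Arrdc4 had 2 counts in control (20.8 CPM) and 0 in diabetic cells (exact 95% interval 0 to 117 CPM).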
